A study of Mus musculus with 32 samples.

Results

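The comparison concerns adult wild-type lungs, 56 days after birth (P56), of mice that had breathed hyperoxia or air as newborns. Its members are the 3 arrays titled as Gsr-WT P56 hyperoxia and the 3 titled as Gsr-WT P56 air, 6 of the 32 arrays in the series, with every gene measured on them. The hyperoxia mice were C3H/HeN, carried both wild-type copies of Gsr, and were kept with their dams in 100% oxygen from day 0 to day 5 and then in room air until they were killed at P56. The air mice had the same strain and genotype and stayed in room air throughout. Each array held RNA from a portion of the lung of 1 mouse, so the replicates are separate animals. The same exposure was given to Gsr-KO mice, with 3 hyperoxia and 3 air arrays at P56, and WT lungs were also taken at P5, with 3 arrays of each kind. Those arrays are set beside the adult WT values below. All 32 arrays enter the model that estimates the spread, the filter on dim genes and the choice of probe set. The rest are KO lungs at P5, with 3 hyperoxia and 3 air arrays, and fetal lungs at embryonic day 19 (E19). The E19 groups, WT and KO, have 4 arrays each. The KO arrays at P56 also enter a mean over genotypes.

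The lung of a newborn mouse is still forming its alveoli, and several days of high oxygen at that age injure the epithelium and the capillaries and slow the division of the air spaces. The exposure is widely used as a model of bronchopulmonary dysplasia, the chronic lung disease of infants born before term. The question a P56 comparison addresses is what is left in the RNA of the adult lung weeks after the return to air. Gsr encodes glutathione reductase, the enzyme that uses NADPH to return oxidised glutathione to its reduced form.

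Signals are MAS5 values on a linear scale. A log2 change is hyperoxia minus air on log2(signal + 26.3), which understates the change of dim genes. Where every array of a group lay below the median of all values, 100.4, a fold of at least that of the other group over this median, on the same scale, is given beside the fitted change. Total signal per array ran between 31276000 and 33268700. Gsr itself was present on all 6 arrays, at 1137, 1541 and 1188 in the hyperoxia lungs and 1124, 926 and 1124 in the air lungs. The hyperoxia lungs lay slightly above the air lungs, with a log2 change of 0.27 ± 0.18 (SE; an exact two-sided permutation test gave p = 0.1, the smallest that 3 against 3 arrays allow). A second Gsr probe set had a log2 change of -0.47. All WT arrays of the series lay between 498 and 1541 for Gsr, and all KO arrays between 138 and 257.

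A pair of measured facts touches every result. Hyperoxia replicate 2 had a log2 ratio of 3′ to 5′ control signal of 2.84, against 0.21 to 0.36 on the other 5 arrays. Its median signal was 76.2, against a highest of 105 among the 6, and it correlated with the other 5 arrays at 0.923 to 0.933, while those correlated with each other at 0.978 to 0.990. It held the highest value of the 6 for 38.0% of genes and the lowest for 36.8%. The main values are therefore also given without it. The sex of the mice is not among the labels. Xist, the RNA of the inactive X chromosome, was at 8631, 5960 and 8650 in the hyperoxia lungs and at 506, 387 and 8524 in the air lungs. The Y-linked Eif2s3y was at 15.5, 53.1 and 10.8 in the hyperoxia lungs and at 1548, 1992 and 130 in the air lungs. Air replicates 1 and 2 thus had high Y-linked and low Xist signal, unlike the other 4 arrays, so sex and oxygen are partly tied together in these 6 lungs.

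**Figure D1:**
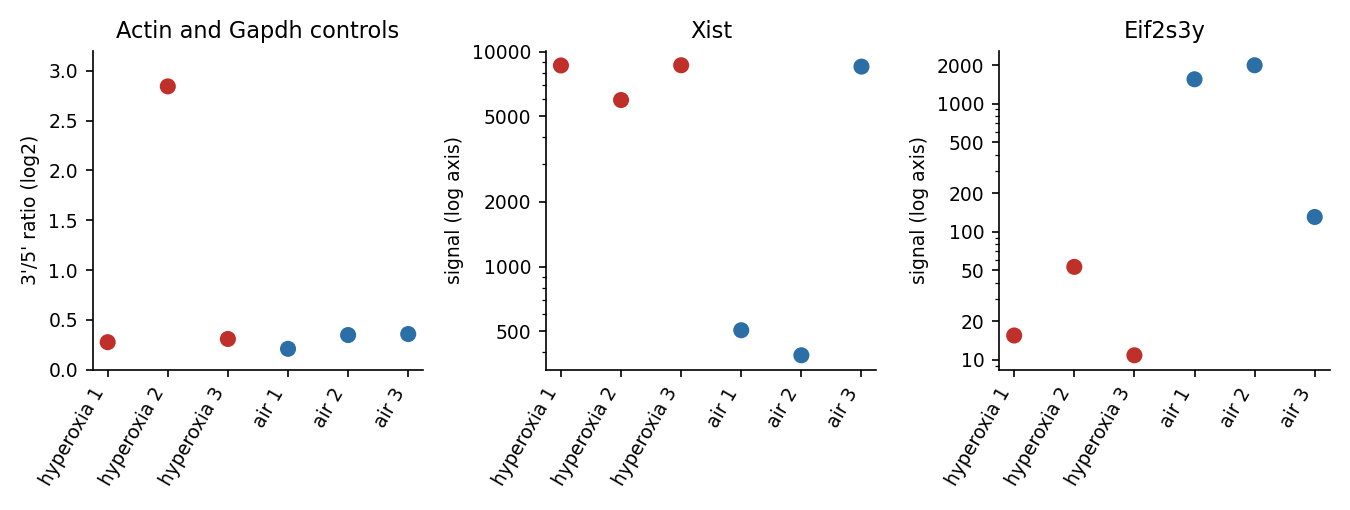
Array quality and sex-linked signals on the 6 adult WT arrays, hyperoxia in red and air in blue. The left panel plots the mean log2 ratio of 3′ to 5′ signal of the actin and Gapdh controls, where hyperoxia replicate 2 stands at 2.84. The other panels plot signal on log axes, where air replicates 1 and 2 differ from the other 4 arrays in Xist and Eif2s3y.

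No single gene passed the test across the genome in adult WT lungs. Of 13345 genes tested with limma, 0 were called at an adjusted p under 0.05 (0% called), with a lowest adjusted p of 0.165. At an unadjusted p under 0.05 there were 681 genes, 5.1% of those tested, of which 385 were higher (2.88%) and 296 lower (2.22%). Scaling moved that split: quantile normalization gave 475 higher and 231 lower, and median centring gave 503 higher and 122 lower, since it moved the median change of all genes to 0.12, against 0.01 without it. Other settings turned the split, with 496 higher and 1146 lower over every kept probe set, and 833 higher and 965 lower with the Y-linked level as a covariate. All 3 hyperoxia arrays lay above all 3 air arrays for 1031 genes (7.73%) and below them for 930 (6.97%). Only 25 of the first (0.187%) and 33 of the second (0.247%) also differed over 2-fold. Without hyperoxia replicate 2 there were again 0 called genes, the lowest adjusted p was 0.988, and 250 genes had an unadjusted p under 0.05, 119 higher and 131 lower. The 2 fits shared 191 genes, all with the same sign (1.43% of those tested). These are 28.0% of the genes from all arrays and 76.4% of those without the array. The genes named below are described with that background in view.

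The clearest differences were few, and most had the same direction in KO lungs. The 6 KO arrays are separate animals with their own air controls, but they share limits of the WT arrays. Eif2s3y was at 1396 on KO air replicate 1 and low on all 3 KO hyperoxia arrays. The log2 ratio of 3′ to 5′ control signal was 0.68 to 1.05 in KO air and 0.54 to 1.55 in KO hyperoxia lungs. On the WT arrays other than hyperoxia replicate 2 it was lower, at 0.21 to 0.36. The 12 highest and the 12 lowest genes were taken from those with an unadjusted p under 0.05 in both fits, no overlap between groups and a name beyond a clone number. The lowest included Eif2s3y and Uty, both Y-linked, which leaves 12 higher and 10 lower genes. All 12 higher genes were also higher in KO hyperoxia than in KO air lungs, and 9 of the 10 lower genes were also lower there, the exception being Zbtb7a. Among all genes higher in WT, 62.2% were higher in KO, and among all lower in WT, 50.1% were lower in KO. The 3 KO hyperoxia arrays lay clear of the 3 KO air arrays in the WT direction for 5 of the 12 higher and 4 of the 10 lower genes, against 12.7% and 8.43% among all genes higher and lower in WT. Over all genes, the KO hyperoxia arrays lay above the KO air arrays for 9.53% and below them for 6.15%. In KO lungs, 4 of the 12 and 2 of the 10 had an unadjusted p under 0.05 by limma in the WT direction. Among all genes, these counts were 156 of 6802 higher in WT and 84 of 6540 lower in WT. The median change of the 12 was 1.49 in WT and 0.74 in KO lungs, and that of the 10 was -1.15 in WT and -0.29 in KO lungs. Since these genes were picked for their size in WT, a larger WT median follows from the choice. Across both genotypes, all 6 hyperoxia arrays lay clear of all 6 air arrays for 101 genes (0.757%), among them 7 of these 22: Slc26a4, Retnla, Marco, Cxcl5, Sstr4, Cstdc2 and Neurl3.

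**Figure D2:**
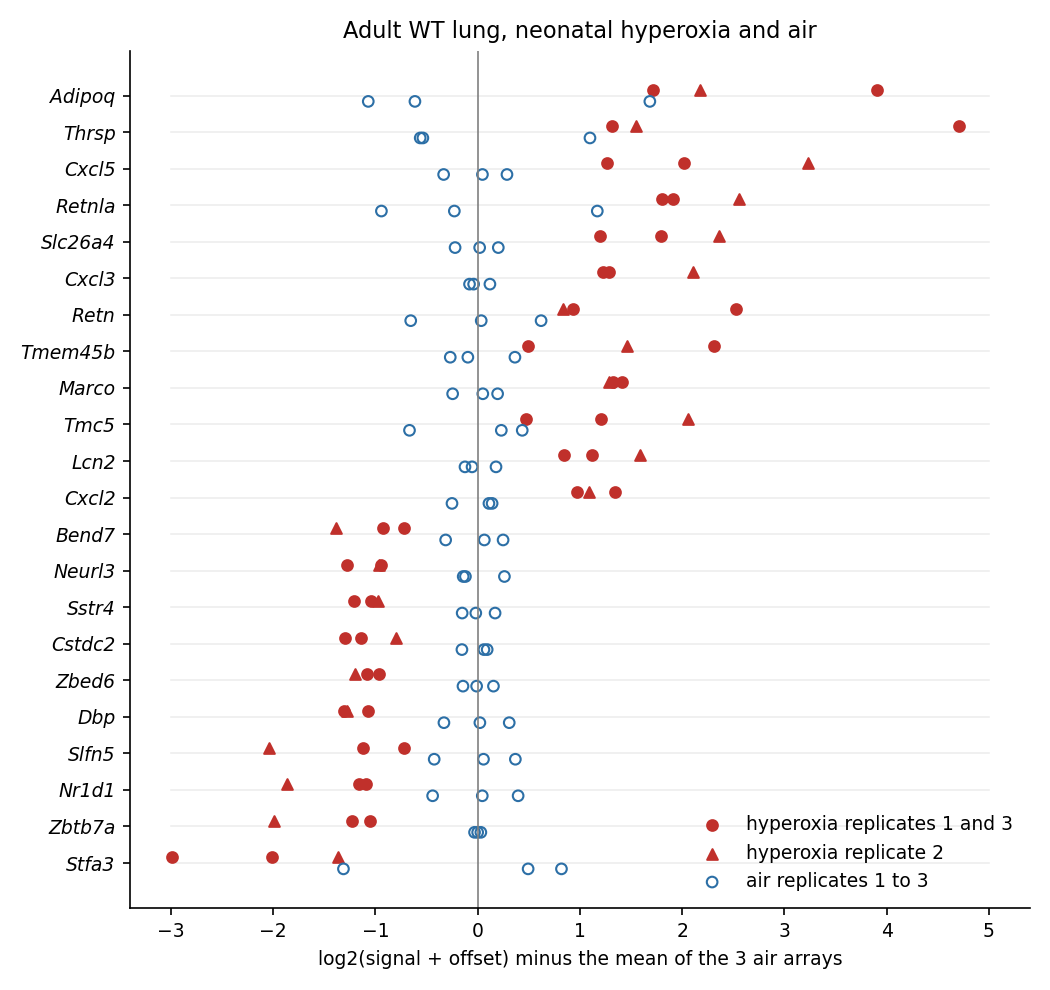
Values of the 12 higher and 10 lower genes on each adult WT array, as log2(signal + 26.3) minus the mean of the 3 air arrays. Red points are hyperoxia arrays, with replicate 2 as a triangle, and open blue points are air arrays. The genes were picked for having no overlap between groups, so every row separates with or without the triangle. The triangle is the highest point for Slc26a4, Retnla, Lcn2, Cxcl5, Cxcl3 and Tmc5.

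Slc26a4, which encodes the anion exchanger pendrin of airway epithelium, was at 519, 782 and 336 in WT hyperoxia lungs and at 155, 134 and 109 in WT air lungs. Every hyperoxia lung was more than double any air lung. Its log2 change was 1.78 ± 0.36 (SE, adjusted p = 0.170 by limma) with all arrays and 1.49 without hyperoxia replicate 2. In KO lungs it was at 421, 689 and 603 after hyperoxia, against 189, 139 and 218 in air, a log2 change of 1.51. At P5, while the WT pups were at the end of their exposure, its log2 change was -0.61.

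Retnla, a secreted protein of macrophages and airway epithelium that type 2 cytokines induce in mice, was at 12357, 20834 and 13292 in WT hyperoxia lungs and 3005, 1823 and 7965 in WT air lungs. The groups did not overlap, though air replicate 3 was more than double the other air lungs. The log2 change was 2.09 ± 0.63 with all arrays, 1.85 without hyperoxia replicate 2, and 1.98 in KO lungs, where the values were 16380, 14099 and 10508 after hyperoxia and 2744, 3889 and 3622 in air. Clca1, a secreted protein of mucous cells, was at 68.2, 2179 and 620 in WT hyperoxia lungs and 17.6, 1.33 and 260 in WT air lungs. These groups overlapped, and the highest value was on hyperoxia replicate 2. In KO lungs Clca1 was at 217, 671 and 174 after hyperoxia, against 11.6, 8.56 and 42.8 in air.

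Marco, a scavenger receptor of macrophages, was at 746, 683 and 699 in WT hyperoxia lungs and 275, 219 and 306 in WT air lungs. The 3 hyperoxia values were close together, and all were above 2 times the air values. The log2 change was 1.34 ± 0.47 with all arrays and 1.37 without hyperoxia replicate 2, and it was 0.98 in KO and 1.21 in WT lungs at P5. A second Marco probe set had a log2 change of 0.26.

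Sstr4, a G protein-coupled receptor for somatostatin, was at 222, 233 and 195 in WT hyperoxia lungs and 435, 479 and 550 in WT air lungs. Each group was tight, and the log2 change was -1.08 ± 0.24 (SE, adjusted p = 0.297) with all arrays and -1.13 without hyperoxia replicate 2. In KO lungs Sstr4 was at 132, 145 and 201 after hyperoxia, against 445, 455 and 355 in air, a log2 change of -1.27. Cstdc2, a gene with a cystatin domain, was at 198, 257 and 174 in WT hyperoxia lungs and 416, 499 and 487 in WT air lungs. Its log2 change was -1.08 ± 0.27 in WT and -1.17 in KO lungs, where hyperoxia gave 239, 233 and 240, against 638, 587 and 487 in air.

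The gene table leaves out probe sets that the platform annotation gives to no gene or to several. Adding the 3603 of them that passed the filter gave 16948 rows, of which 1 was called in adult WT lungs (0.0059%). The probe set is annotated to both H19, an imprinted noncoding RNA that is abundant before birth and falls with age, and Mir675, the microRNA cut from it. It was at 203, 477 and 238 in WT hyperoxia lungs and 1040, 1177 and 858 in WT air lungs. It fell by 1.74 ± 0.26 on the log2 scale (adjusted p = 0.00515 by limma), and by 2.09 without hyperoxia replicate 2 (adjusted p = 0.000130). In KO lungs it was at 318, 199 and 268 after hyperoxia, against 862, 776 and 626 in air, a log2 change of -1.45 ± 0.26 (adjusted p = 0.0964). At P5 the WT change was -0.60 (adjusted p = 0.99954). Levels in WT lungs before birth were 13489 to 20549, so the adult signal was low in both groups relative to the fetal one. The call was lost without hyperoxia replicate 3 (adjusted p = 0.114), without air replicate 1 (0.0601), without air replicate 2 (0.108), with the P56 groups fitted alone (0.0699) and with the WT P56 groups alone (0.681). Igf2, the growth factor gene that lies beside H19 and is imprinted with it, was at 399, 238 and 389 in WT hyperoxia lungs and 747, 723 and 760 in WT air lungs. Its log2 change was -1.09 ± 0.42 (unadjusted p = 0.0156) with all arrays, -0.87 without hyperoxia replicate 2 and -0.59 in KO lungs, where the groups were also apart, at 427, 352 and 350 after hyperoxia against 619, 615 and 505 in air.

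Taking the mean of the WT and KO oxygen effects at P56 over the same 16948 rows, a comparison added after these values were seen, called 6 (0.0354%), of which 2 were higher (0.0118%) and 4 lower (0.0236%). Slc26a4 rose by 1.65 ± 0.26 on the log2 scale (adjusted p = 0.00417), and Clca1 rose by 2.86 ± 0.53 (adjusted p = 0.0356). The H19 and Mir675 probe set fell by 1.60 ± 0.18 (adjusted p = 4.06e-05), Sstr4 fell by 1.17 ± 0.17 (adjusted p = 0.00221), Cstdc2 fell by 1.12 ± 0.19 (adjusted p = 0.0108) and Wfdc6a, a whey acidic protein family gene, fell by 0.69 ± 0.13 (adjusted p = 0.0261). Wfdc6a was at 62.1, 57.6 and 63.7 in WT hyperoxia lungs, all below the median of all values, against 121, 107 and 105 in WT air lungs, so it was at least 1.08-fold lower in WT. Without WT hyperoxia replicate 2, 4 were called (0.0236%): Slc26a4, the H19 and Mir675 probe set, Sstr4 and Cstdc2. With the Y-linked level as a covariate, Slc26a4, Sstr4 and the H19 and Mir675 probe set were called. The 6 hyperoxia arrays of both genotypes lay between 336 and 782 for Slc26a4, against 109 to 218 on the 6 air arrays, and between 132 and 233 for Sstr4, against 355 to 550. The 3 air lungs with low Eif2s3y (WT replicate 3 and KO replicates 2 and 3) had 109, 139 and 218 for Slc26a4 and 550, 455 and 355 for Sstr4. No hyperoxia lung had high Eif2s3y: the 6 hyperoxia arrays lay between 10.8 and 53.1, against 75.5 to 1992 on the 6 air arrays. Sex and oxygen are thus partly tied together over both genotypes too. The difference between WT and KO effects called 0 of 13345 genes (0%), with 328 at an unadjusted p under 0.05.

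**Figure D3:**
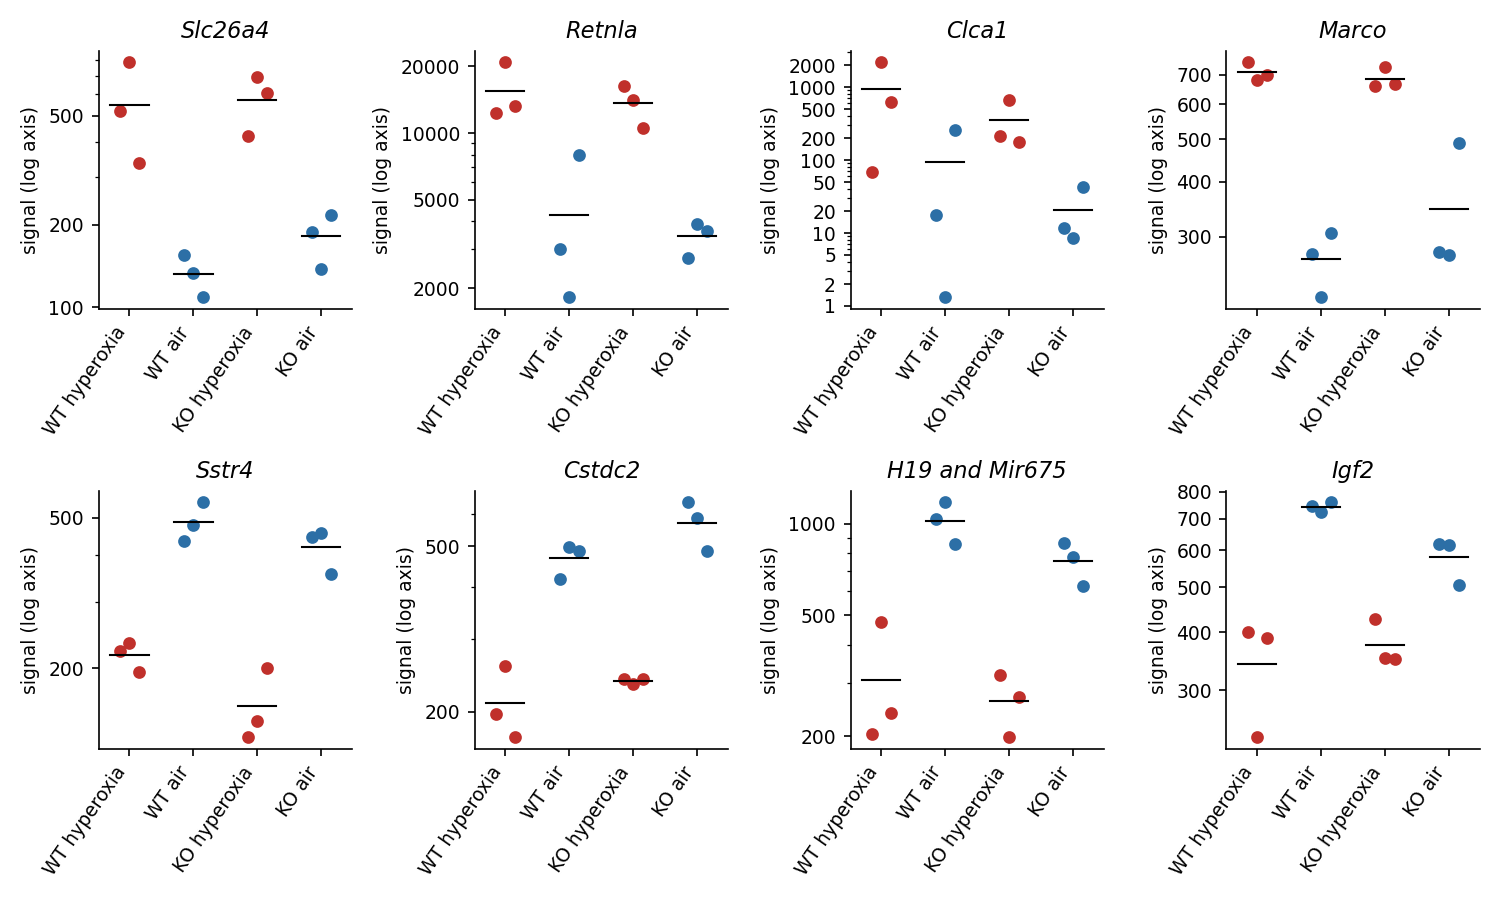
Signals of 8 transcripts in adult lungs, on log axes, for WT hyperoxia, WT air, KO hyperoxia and KO air, with 3 arrays in each group and a bar at the mean. In 7 panels the hyperoxia arrays of each genotype lie clear of its air arrays, and in that of Clca1 the WT groups overlap.

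Chemokines and inflammatory cytokines lay on the higher side in adult WT hyperoxia lungs. CXC chemokines with a conserved glutamate-leucine-arginine motif call in neutrophils and, in mice, act through Cxcr2, and their genes sit in a cluster on chromosome 5. Of 30 inflammatory genes tested, 26 had a positive change, 9 lay above all air arrays (against 7.73% of all genes) and 0 below. Their median log2 change was 0.31, or 0.22 without hyperoxia replicate 2, against 0.01 and 0.02 over all genes. None was called. Cxcl5, made by alveolar and airway epithelium, was at 475, 1929 and 820 in the hyperoxia lungs and 189, 228 and 139 in the air lungs. The spread within the hyperoxia group was wide, with replicate 2 the highest. The log2 change was 2.17 ± 0.55 (adjusted p = 0.494), 1.64 without that array and 0.77 in KO lungs.

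Cxcl3 was at 147, 279 and 140 in hyperoxia lungs, against 50.8, 42.8 and 40.9 in air lungs. Cxcl2 was at 132, 144 and 177 in hyperoxia lungs, against 62.3, 41.2 and 60.5 in air lungs. Both sat below the median of all values in every air lung and above it in every hyperoxia lung, so that Cxcl3 was at least 1.63-fold and Cxcl2 at least 1.39-fold higher. The fitted log2 changes were 1.54 ± 0.32 and 1.13 ± 0.29, or 1.26 and 1.16 without hyperoxia replicate 2. Cxcl1 was at 394, 659 and 454, against 339, 262 and 280, a log2 change of 0.70, or 0.50 without hyperoxia replicate 2. In KO lungs the changes of Cxcl3, Cxcl2 and Cxcl1 were 0.17, 0.25 and 0.19.

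The stretch before the start site of 3 of these neighbours is shown because all hold the NF-kB type motif GGNNTTTCC, in capitals, which was searched on both strands. The sequences are the 250 bases before the annotated start in RefSeq, build GRCm38.p6, read 5′ to 3′ along the gene. They lie at chr5:90890995-90891244, plus strand for Cxcl1, at chr5:90903649-90903898, plus strand for Cxcl2 and at chr5:90785851-90786100, plus strand for Cxcl3. Of 5 genes looked up for sequence, 4 had an entry. Cxcl5 was not among them.
Cxcl1: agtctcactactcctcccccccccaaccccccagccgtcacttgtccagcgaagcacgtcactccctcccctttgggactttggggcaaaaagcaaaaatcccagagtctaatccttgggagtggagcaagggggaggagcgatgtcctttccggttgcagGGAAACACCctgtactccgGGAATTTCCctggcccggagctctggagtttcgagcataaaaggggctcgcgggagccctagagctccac
Cxcl2: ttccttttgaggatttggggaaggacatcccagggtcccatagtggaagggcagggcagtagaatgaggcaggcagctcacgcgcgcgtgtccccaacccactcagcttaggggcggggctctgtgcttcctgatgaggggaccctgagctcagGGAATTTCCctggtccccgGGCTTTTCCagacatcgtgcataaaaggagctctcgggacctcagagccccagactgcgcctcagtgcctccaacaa
Cxcl3: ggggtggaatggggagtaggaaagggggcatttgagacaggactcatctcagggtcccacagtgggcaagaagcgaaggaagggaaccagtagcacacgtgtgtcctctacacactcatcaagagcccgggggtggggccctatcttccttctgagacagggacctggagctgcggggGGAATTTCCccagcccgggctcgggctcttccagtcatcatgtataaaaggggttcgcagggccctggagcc
The motif was found 2 times in Cxcl1, 2 times in Cxcl2 and 1 time in Cxcl3, and in 4.93% of 32851 promoter windows of the same length. A match is a run of letters and does not show that a factor binds there.

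Lcn2, an iron-withholding secreted protein of inflamed epithelium and neutrophils, was at 3068, 5175 and 3728 in hyperoxia lungs and 1931, 1560 and 1637 in air lungs, a log2 change of 1.18 ± 0.27 (adjusted p = 0.297), 0.98 without hyperoxia replicate 2 and 0.20 in KO lungs. Cxcl13, which draws B cells, was even within its group, at 700, 656 and 672 in hyperoxia lungs and 368, 359 and 235 in air lungs. Its log2 change was 1.04 in WT and 1.02 in KO lungs. A second Cxcl13 probe set had a WT log2 change of 0.12. Saa3, an acute-phase protein, was at 929, 1366 and 967, against 470, 529 and 517. Ccl17, a T cell attractant of dendritic cells, was at 231, 279 and 135, against 94.8, 83.3 and 98.9, at least 1.84-fold higher. S100a8, an abundant neutrophil protein, overlapped at 3288, 3983 and 11163 in hyperoxia lungs and 5647, 4453 and 2617 in air lungs, and 2 of 19 neutrophil genes lay above all air arrays, near the 7.73% of all genes, and 0 below.

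Of 24 genes of monocytes, interstitial macrophages and dendritic cells, 15 had a positive and 9 a negative change, 4 lay above all air arrays (against 7.73% of all genes) and 0 below (against 6.97%), and the median log2 change was 0.18, or 0.31 without hyperoxia replicate 2. Cd14, a co-receptor for endotoxin, was at 1478, 1590 and 2448 in hyperoxia lungs, against 1012, 742 and 1405 in air lungs. Itgae, an integrin of dendritic cells and resident T cells, was at 1107, 1413 and 988, against 469, 634 and 739. Mmp12, the macrophage elastase, was at 125, 230 and 122, against 69.6, 39.4 and 64.2, at least 1.41-fold higher, since every air lung was below the median of all values. The fitted log2 change was 1.11, or 0.85 without hyperoxia replicate 2, and 0.89 in KO lungs. Ighm, the heavy chain of IgM, was at 2850, 5244 and 7805 in hyperoxia lungs and 1916, 1550 and 947 in air lungs, with a log2 change of 1.77 in WT and 1.84 in KO lungs (1.72 in WT without hyperoxia replicate 2). Other Ighm probe sets had WT log2 changes of 0.56, 0.05 and -0.26. Igha, the heavy chain of IgA, was lower after hyperoxia, at 4737, 4920 and 4799 in hyperoxia lungs and 11944, 9566 and 5823 in air lungs. In bulk lung RNA, fewer cells of a type and less RNA per cell cannot be told apart.

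Airway secretory genes overlapped between the groups. Of 19 club and secretory genes, 17 had a positive change but 0 separated the groups. Air replicate 3 was higher than hyperoxia replicate 1 for the 2 genes given first here. Bpifb1, an airway mucosal defence protein, was at 1982, 7649 and 6032 in hyperoxia lungs and 510, 109 and 3149 in air lungs. Reg3g, an antibacterial lectin, was at 604, 14918 and 6263, against 325, 31.9 and 2962. Scgb1a1, the major club cell secretion, was near equal at 21732, 25834 and 28120, against 22960, 20791 and 25570. How much of the airway each piece of lung held was not tested.

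Alveolar epithelial markers were close in both groups. Ager, the receptor of alveolar type 1 cells, was at 18170, 21920 and 21874 in hyperoxia lungs and 18865, 17244 and 21558 in air lungs, and the median change of 24 type 1 genes was 0.03, or -0.04 without hyperoxia replicate 2. A second Ager probe set had a log2 change of -0.46 (unadjusted p = 0.224 by limma). Sftpc, the surfactant protein that marks type 2 cells, was at 15128, 18968 and 19965, against 17230, 14887 and 20276. Of 23 type 2 genes, 8 lay above all air arrays (against 7.73% of all genes) and 0 below (against 6.97%). Their median change was 0.13, or 0.19 without hyperoxia replicate 2, and it turned to -0.02 with quantile normalization. Lcn2 and Chil1 had the largest changes of the 8. Chil1, a chitinase-like secreted protein, was at 10176, 12795 and 11522 in hyperoxia lungs and 8186, 7939 and 8007 in air lungs, a log2 change of 0.51 (unadjusted p = 0.0308), or 0.43 without hyperoxia replicate 2. Sftpa1, a collectin of surfactant, was one of them, at 19802, 20968 and 21917, against 17917, 17529 and 17755, a log2 change of 0.24.

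Capillary genes tended to lie lower in WT hyperoxia lungs, in part through hyperoxia replicate 2. Of 26 general capillary genes, 5 lay below all air arrays (against 6.97% of all genes) and 1 above, with a median of -0.18, or -0.15 without hyperoxia replicate 2, -0.07 with median centring and -0.34 with quantile normalization. Of 15 aerocyte genes, those of the broad gas-exchange capillary cells, 6 lay below and 0 above, and the median was -0.29, or -0.08 without that array, -0.18 with median centring and -0.40 with quantile normalization. In KO lungs the median change was 0.02 for the general capillary genes and -0.09 for the aerocyte genes. Kdr, the main endothelial receptor for VEGF, was at 4201, 2382 and 4269 in hyperoxia lungs and 5714, 5272 and 5696 in air lungs. Replicate 2 was the lowest, yet the other hyperoxia lungs also lay below all air lungs, and the log2 change was -0.66 ± 0.25 (unadjusted p = 0.0123), or -0.39 without it (unadjusted p = 0.135) and -0.11 in KO lungs. Pecam1, a junction protein of all endothelium, was at 4870, 737 and 5384, against 5713, 5408 and 6525. Its log2 change was -1.11 with all arrays and -0.19 without hyperoxia replicate 2. Gpihbp1, which holds lipoprotein lipase on capillaries, was at 5954, 885 and 5961, against 7355, 7276 and 7268. Vegfa, the ligand of Kdr, overlapped at 4383, 7737 and 4507, against 4538, 5075 and 5477, a log2 change of 0.09. A second Vegfa probe set had a log2 change of -1.09 (unadjusted p = 0.000673 by limma). That probe set was fitted with all arrays only, so its change without hyperoxia replicate 2 is not given.

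**Figure D4:**
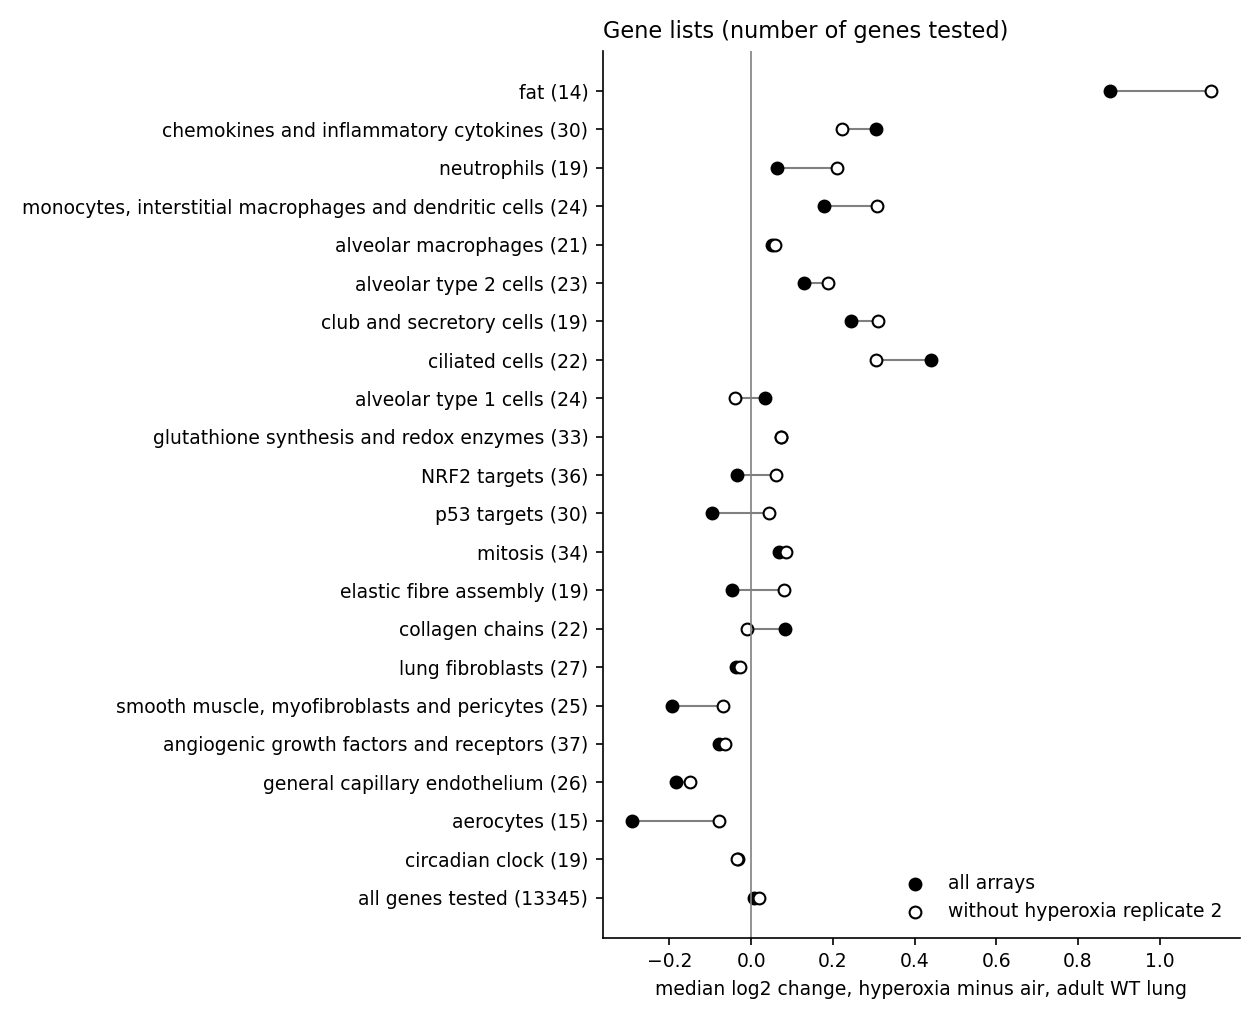
Median log2 change of gene lists in adult WT lungs, hyperoxia minus air, with all arrays as filled circles and without hyperoxia replicate 2 as open circles. The number of genes tested is in parentheses. Fat genes lie at 0.88 and 1.13, and the aerocyte median moves to -0.08 from -0.29 when that array is left out.

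Matrix genes had medians close to 0, at -0.05 for elastic fibre genes and 0.08 for collagen chains, and both signs turned without hyperoxia replicate 2, to 0.08 and -0.01. Elastin (Eln), the core of the elastic fibres that shape alveoli, was at 4170, 4075 and 4335 in hyperoxia lungs and 3554, 3900 and 3202 in air lungs, a log2 change of 0.24. A second Eln probe set had a log2 change of -0.85 (unadjusted p = 0.487 by limma). Col1a1 was at 839, 1187 and 900, against 928, 993 and 974. Of 19 elastic fibre genes, 3 lay above all air arrays and 1 below, and of 22 collagen genes 2 lay above and 1 below, against 7.73% and 6.97% of all genes. Acta2, smooth muscle actin, overlapped at 8268, 12478 and 10588, against 8402, 7444 and 10684. Of 25 smooth muscle, myofibroblast and pericyte genes, 4 lay below and 1 above all air arrays, against 6.97% and 7.73% of all genes. Higd1b, a pericyte marker, was at 746, 690 and 788, against 1136, 953 and 1036.

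Genes of the oxidant and p53 responses had small changes in the adult. Cdkn1a, the cell cycle inhibitor driven by p53, was at 1895, 2258 and 1757 in hyperoxia lungs and 1424, 1406 and 2064 in air lungs, a log2 change of 0.28, or 0.18 without hyperoxia replicate 2, beside 2.07 at P5. A second Cdkn1a probe set had a log2 change of -0.32 at P56. Hmox1, heme oxygenase, was at 649, 466 and 610, against 674, 558 and 520, a change of -0.03, or 0.11 without hyperoxia replicate 2, beside 1.12 at P5. Nqo1, a quinone reductase under NRF2, was at 213, 203 and 207, against 306, 264 and 264, a change of -0.38. The median of 30 p53 targets was -0.10 and that of 36 NRF2 targets was -0.03, and both signs turned without hyperoxia replicate 2, to 0.04 and 0.06. Of 33 glutathione and redox genes 7 lay above all air arrays and 1 below, against 7.73% and 6.97% of all genes. Txn1, thioredoxin, was at 14583, 18172 and 15055, against 12375, 12704 and 12745, a change of 0.33, and Cat, catalase, at 12576, 14263 and 11747, against 10582, 10983 and 9316.

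The 50 genes with the largest positive change among those at an unadjusted p under 0.05 in WT hyperoxia at P5 had a median P5 change of 1.01 and a median P56 change of 0.11. At P56, 34 of them were higher and 16 lower, 7 lay above all air arrays and 2 below, against 7.73% and 6.97% of all genes. Clec4d, a lectin of myeloid cells, was one, at 392, 553 and 664, against 300, 335 and 224 in adult lungs. Ggt6, of the gamma-glutamyl transferase family, was another, at 101, 103 and 100, against 40.4, 53.3 and 44.8, at least 1.01-fold higher. The 50 with the most negative change, picked in the same way, had medians of -2.28 at P5 and -0.27 at P56, where 13 were higher and 37 lower, 13 below all air arrays and 1 above. Liver transcripts such as Alb, Fgg and Apoh are among them. Alb, serum albumin, was at 119, 418 and 233 in adult hyperoxia lungs and 655, 1284 and 507 in adult air lungs, and 6 of 18 liver genes lay below all air arrays (against 6.97% of all genes) and 0 above. The liver median was -0.57 and turned to 0.07 with the Y-linked level as a covariate. The part of liver RNA in these values was not tested. The difference between the P56 and P5 effects in WT called 0 of 13345 genes (0%), with a lowest adjusted p of 0.269 and 372 genes at an unadjusted p under 0.05.

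The clock genes Dbp and Nr1d1 lay lower in every adult WT hyperoxia lung than in any air lung. The core clock activators drive Dbp, Nr1d1 and the Per genes, and Nr1d1 in turn represses Arntl, so these genes swing in opposite phases over the day. Dbp, which encodes a factor that binds D-box elements, had the lowest p of the 13345 genes with a symbol of their own. It was at 161, 165 and 194 in hyperoxia lungs and 549, 445 and 343 in air lungs. The hyperoxia lungs were alike and the air lungs spread, with a log2 change of -1.22 ± 0.23 (unadjusted p = 1.23e-05, adjusted p = 0.165), -1.19 without hyperoxia replicate 2, and -1.32 at a second probe set. In KO lungs Dbp was at 190, 199 and 157 after hyperoxia, against 278, 178 and 335 in air, so those groups overlapped.

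Nr1d1 was at 193, 108 and 203 in hyperoxia lungs and 618, 479 and 334 in air lungs, a log2 change of -1.37 ± 0.37, or -1.13 without hyperoxia replicate 2 and -0.15 in KO lungs. Of 19 clock genes, 5 lay below all air arrays and 3 above, against 6.97% and 7.73% of all genes. The 3 above were Arntl, at 568, 680 and 523 against 394, 385 and 476, Cry1, at 681, 652 and 612 against 427, 546 and 518, and Nfil3, at 181, 168 and 189 against 138, 95.5 and 138. Per3, a period gene, was at 234, 143 and 207 in hyperoxia lungs and 287, 240 and 315 in air lungs. The hour at which each mouse was killed is not among the labels, so a difference in hour and one in exposure cannot be told apart for these genes.

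The 250 bases before the start of Per3 (chr4:151044666-151044915, minus strand, GRCm38.p6) are shown because they hold 2 matches to the D-box type motif TTATGNAA, in capitals, found in 3.07% of the 32851 windows.
Per3: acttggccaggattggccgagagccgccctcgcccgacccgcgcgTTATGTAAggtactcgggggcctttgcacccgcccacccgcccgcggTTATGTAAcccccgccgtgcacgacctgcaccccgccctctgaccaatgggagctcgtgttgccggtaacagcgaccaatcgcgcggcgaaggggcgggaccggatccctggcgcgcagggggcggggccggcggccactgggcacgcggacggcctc
Both strands were searched, and the match shows only that these letters are there.

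Fat genes were high in some adult WT lungs and low in others, in both groups. Adipoq, the adipocyte hormone adiponectin, was at 2120, 620 and 443 in hyperoxia lungs and 67.4, 42.0 and 434 in air lungs. The groups barely separated, since air replicate 3 lay just below hyperoxia replicate 3. The log2 change was 2.60 ± 0.63 with all arrays and 2.81 without hyperoxia replicate 2, and in KO lungs Adipoq was at 1277, 1293 and 1664 after hyperoxia, against 744, 262 and 2002 in air. Thrsp, which promotes fatty acid synthesis in adipose tissue, was at 3429, 362 and 304, against 65.0, 63.4 and 257. Ucp1, the uncoupling protein that marks brown fat, was at 1461 on hyperoxia replicate 1 and between 2.19 and 8.19 on the other 5 arrays. Of 14 fat genes, 13 had a positive change and 2 lay above all air arrays (against 7.73% of all genes). Of 30 heart muscle genes of the pulmonary veins, 1 lay above all air arrays (against 7.73% of all genes) and 0 below. Myh6, a cardiac myosin, was highest on air replicate 3, at 1737, 3163 and 4080 in hyperoxia lungs and 2298, 938 and 6222 in air lungs. The part of tissue outside the lung in these values was not tested.

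**Figure D5:**
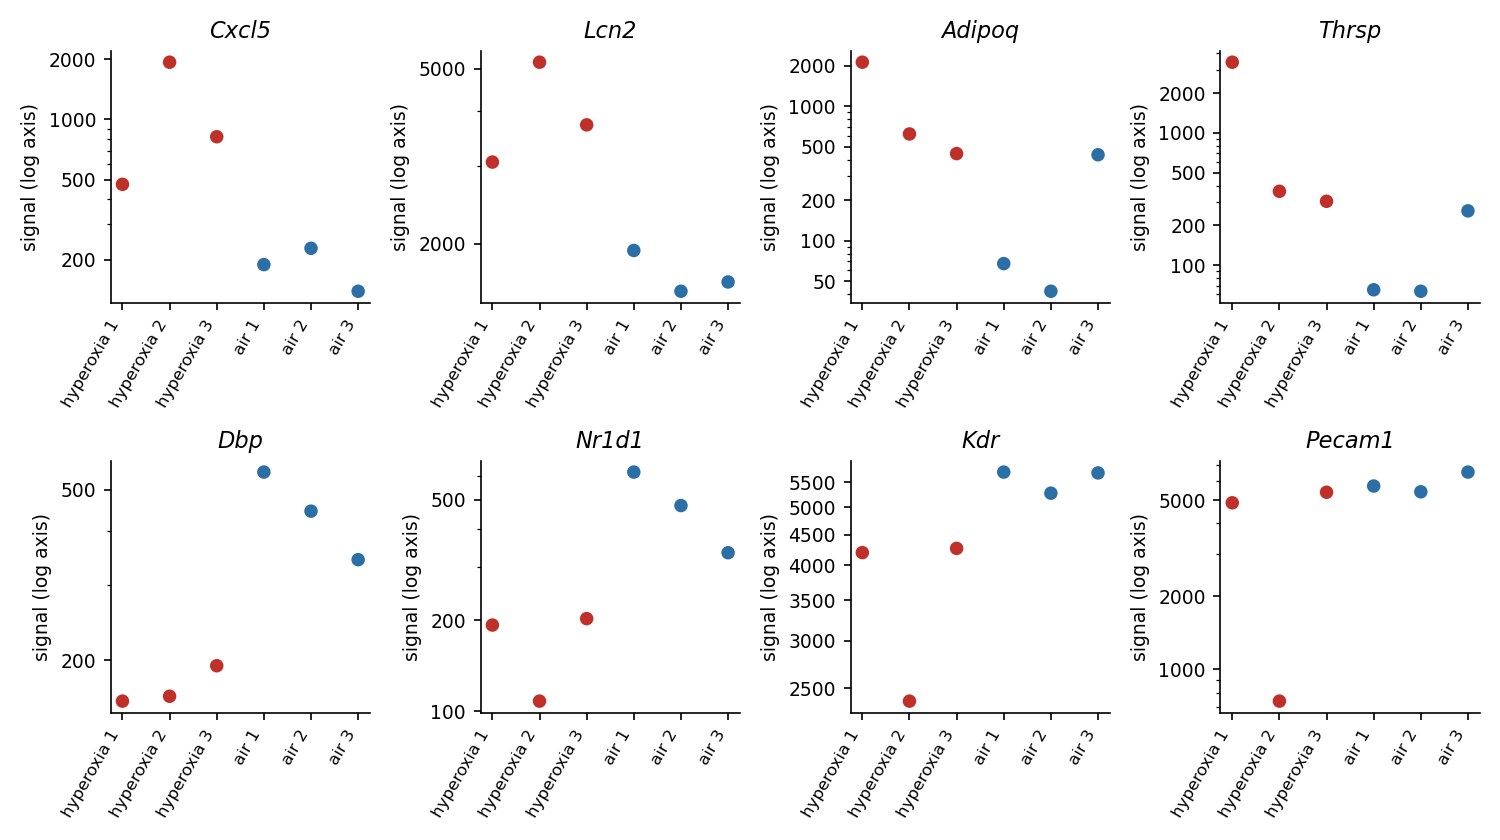
Signals of 8 genes on the 6 adult WT arrays, on log axes, hyperoxia in red and air in blue. All 8 genes separate the groups, though Adipoq, Thrsp and Pecam1 do so narrowly. Adipoq and Thrsp have air replicate 3 beside hyperoxia replicate 3, and Pecam1 is low on hyperoxia replicate 2.

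Several of the lowest genes rest on 1 probe set or on a gene family. Zbtb7a, a zinc finger repressor, was at 384, 216 and 437 in hyperoxia lungs and 936, 916 and 957 in air lungs, but its second probe set had a log2 change of 0.01, against -1.42. Slfn5, of the interferon-induced schlafen family, had a change of -1.29, with -0.87 and 0.34 at other probe sets. Stfa3, a stefin with near-identical neighbours whose signals an array may mix, was at 2.27, 61.9 and 29.8 in hyperoxia lungs and 374, 293 and 65.1 in air lungs, at least 1.79-fold lower. Neurl3, an E3 ubiquitin ligase-like gene of alveolar cells, was at 87.8, 115 and 117, against 305, 224 and 228, a change of -1.06 in WT and -0.19 in KO lungs.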

How the data were processed

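Lung RNA from 1 mouse per array, 200 ng each, was measured on Affymetrix Mouse 430_2 arrays, per the labels. The deposited values are linear intensity for each of 45101 probe sets. MAS5 is named in the submitters' processing notes, and further settings are not given in the sources used here. The trimmed mean was about equal on all arrays. No detection calls or scan dates were used, and the number of arrays limits precision.

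In R 4.3.3 with limma 3.58.1, signals were analysed as log2(signal + 26.3), the 25th percentile of all values. Probe sets above the median, 100.4, on at least 3 arrays were kept. Of 45101, 34945 had 1 symbol in the platform annotation, 932 several and 9160 none, and 64 were controls. The probe set with the highest mean over 32 arrays stood for each gene, giving 13345 genes. lmFit and eBayes with a trend were fitted over all 10 groups (22 residual degrees of freedom), with Benjamini-Hochberg adjustment and a threshold of 0.05. The fit was run on simulated data with normal noise, where each gene had the same spread on every array. That simulation held no array of poor quality and no tie between sex and oxygen, so it does not cover these features.

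Members and lists were chosen with earlier results of these data known. Named genes are Gsr, the 12 highest and 12 lowest genes as described, the 2 most abundant and up to 4 lowest-p genes of each list, 3 genes picked at P5 in each direction and a set of fixed markers. Arntl, Cat, Clca1, Cry1, Cxcl1, Igf2, Nfil3, Saa3, Ucp1 and Wfdc6a lie outside that rule. They, the promoters and the mean over genotypes were chosen after their values were seen. Ear1 and Ear2 had no probe set of 1 symbol, and Ccl2 did not pass the filter. Replicate numbers were not taken as pairs.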

Additional observations from a re-analysis of the deposited data

Results flagged for a closer look

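The probe set annotated to both H19 and Mir675 lies outside the gene table, since it carries 2 symbols. It was the only one of the 3603 probe sets with no or several symbols that was called in adult WT lungs, with a log2 change of -1.74, while 177 of them had an unadjusted p under 0.05. Its values on each array and the settings that lose the call are given above. No group of the comparison has more than 3 arrays, so single arrays were not tested as outliers.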

How the results depend on the processing

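The count of called genes, 0, became 1 with no filter on dim genes, 2 with the offset at the median, 892 with array weights, 2 with the P56 groups alone and hyperoxia replicate 2 left out, and 236 with array weights and that array left out. Probe sets of no or several symbols added 1, and the mean of the WT and KO effects called 6, or 4 without that array. Leaving out 1 array at a time gave 0 to 4, with 3 without hyperoxia replicate 1 and 4 without air replicate 3. The 681 genes at an unadjusted p under 0.05 became 1642 over every kept probe set, 1212 with the P56 groups alone, 2769 with array weights, 1798 with the Y-linked level as a covariate, and 250 to 1247 with 1 array left out (250, 1121 and 1247 without hyperoxia replicates 2, 1 and 3, and 329 without air replicate 1). With hyperoxia replicate 2 left out as well, they were 1182 with 2 groups alone, 1989 with array weights and 387 with the Y-linked covariate. The 58 genes without overlap and over 2-fold became 108 with the offset at the 10th percentile, 22 with it at the median, 248 over every probe set, 135 with the Y-linked covariate, and 55 to 194 with 1 array left out (194 and 170 without hyperoxia replicates 1 and 3, and 89 and 154 without air replicates 2 and 3). The difference between WT and KO effects called 327 with array weights and 90 with them and without hyperoxia replicate 2. That between P56 and P5 called 2 with the offset at the median, 1534 with array weights and 881 with them and without that array. A turn of direction was counted only for named genes with a main unadjusted p under 0.05 or called under the alternative. By that rule it turned for Agr2 with array weights (-0.11). With the Y-linked covariate it turned for Kdm5d (0.32, or 0.44 without hyperoxia replicate 2) and Uty (0.055, or 0.053). Genes with a larger p also changed sign and were not counted, such as Xist, at 2.63 and, with that covariate, -1.32. Of 1125 list medians under alternatives, 114 moved by more than the spread between replicates. The causes were not tested. With the replicate number as a block, 0 genes were called and 644 had an unadjusted p under 0.05. Deviations of same-numbered arrays correlated at 0.14, 0.04 and 0.06, so the numbers were not taken as pairs. With 3 mice a group, 1 array with a high 3′ to 5′ ratio and Y-linked signal uneven between the groups, small changes were not detectable.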
